A study of Mus musculus with 12 samples.

Results

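The 7 S100 genes described here, S100a1, S100a4, S100a6, S100a10, S100a11, S100a13 and S100b, were taken by name from a table of 17536 mouse genes measured by RNA-seq in 12 libraries of cartilage cells. All 7 had a value above 0 in every library and passed the filter on low values in every comparison. The cells were chondrocytes of the superficial zone (SFZ) and of the deep zone (DZ) of epiphyseal cartilage from 5-day-old mice, with 3 libraries per zone and genotype. R3-Cntl mice were Runx3 fl/fl, and R3-cKO mice were their Col2a1-Cre; Runx3 fl/fl littermates, kept on a C57BL/6J background (C57BL/6 in the sample labels), so that both genotypes carried floxed Runx3 and only R3-cKO carried the Cre. Col2a1 regulatory sequence drives this Cre in chondrocytes. SFZ cells were released from the cartilage surface with trypsin and collagenase, and DZ cells by further digestion of the cartilage that remained, and the methods describe monolayer culture of such cells. The study used these libraries to ask what the loss of Runx3 changes in cells of each zone, and the same libraries allow the zones to be compared.

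S100 proteins are small calcium-binding proteins with a pair of EF-hand motifs, and most of them act as dimers that bind target proteins when calcium rises. In cartilage, S100a1 and S100b are known as products of differentiated chondrocytes and as targets of the Sox trio (Sox5, Sox6 and Sox9), the transcription factors that drive the cartilage matrix genes. S100a4 is widely used as a marker of fibroblasts and of motile cells, and S100a10, which does not respond to calcium, forms a complex with annexin A2 (Anxa2) at membranes.

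Of the 7 genes, 6 lie on chromosome 3. In the mm9 annotation, 4 of them belong to a run of 11 S100 family genes spanning 185 kb, from 90314956 to 90499643: S100a1 (Entrez gene 20193, 90314956 to 90318314, reverse strand), S100a13 (20196, 90318357 to 90328503, forward), S100a4 (20198, 90407692 to 90409967, forward) and S100a6 (20200, 90416816 to 90418336, forward). S100a11 (20195, 93324410 to 93330209, forward) and S100a10 (20194, 93359002 to 93368565, forward) follow after a gap of 2825 kb on the same chromosome. S100b (20203) lies alone on chromosome 10, from 75716598 to 75723904 on the forward strand.

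RefSeq promoter windows (build GRCm38.p6, 250 bases before to 50 bases after the start) matched 6 of the 7 genes, S100a1, S100a4, S100a6, S100a11, S100a13 and S100b. In this build S100a1 and S100a13 are transcribed away from each other from start sites 105 bases apart, and their windows share 204 bases. The mm9 annotation differs and leaves 42 bases between these genes. The segment between these start sites is shown, on the forward strand, because the pair shared it but differed in their patterns over the libraries. The 250 bases before the start sites of S100a4, S100a6 and S100b are shown because these genes had the largest zone or genotype differences. Capitals mark matches to the motifs searched on both strands: the Runx core TGTGGT or TGCGGT, the Sox cores ACAAAG and ACAATG, the TATA box TATAAA and the AP-1 site TGAGTCA.
S100a1-S100a13, chr3:90514331-90514434, forward strand: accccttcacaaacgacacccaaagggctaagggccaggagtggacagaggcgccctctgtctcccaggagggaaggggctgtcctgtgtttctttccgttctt
S100a4, chr3:90603520-90603769, forward strand: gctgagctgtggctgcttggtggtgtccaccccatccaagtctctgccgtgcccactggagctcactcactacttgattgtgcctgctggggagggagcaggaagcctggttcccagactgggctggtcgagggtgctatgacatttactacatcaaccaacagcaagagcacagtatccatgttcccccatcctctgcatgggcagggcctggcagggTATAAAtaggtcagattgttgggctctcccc
S100a6, chr3:90612644-90612893, forward strand: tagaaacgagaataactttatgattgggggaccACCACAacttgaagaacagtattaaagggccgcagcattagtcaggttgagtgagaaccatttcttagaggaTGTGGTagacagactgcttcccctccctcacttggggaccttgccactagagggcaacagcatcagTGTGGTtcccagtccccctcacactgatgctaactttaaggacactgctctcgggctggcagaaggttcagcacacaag
S100b, chr10:76253586-76253835, forward strand: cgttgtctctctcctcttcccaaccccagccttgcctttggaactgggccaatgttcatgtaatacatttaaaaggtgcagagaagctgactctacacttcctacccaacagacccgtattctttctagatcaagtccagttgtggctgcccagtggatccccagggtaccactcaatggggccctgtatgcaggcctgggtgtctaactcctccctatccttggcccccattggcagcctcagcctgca
The S100a6 window held 3 Runx cores, at -217, -145 and -79 from the start, and S100a1 held 1 at -191. At least 1 Runx core was found in 7362 of 32851 promoter windows (22.4%), and the share with 3 was not counted. S100a4 had a TATA box at -31, a motif of 13.6% of windows. S100a11 had AP-1 sites at -136 and -38, where 5.20% of windows held at least 1. None of the 6 windows held a Sox core, which 28.6% of all windows held. These matches describe the sequence only.

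The deposited values were read as FPKM, fragments scaled to transcript length and library size, with a further scaling between libraries by the trimmed mean of M values. This unit was inferred, and the methods of the study name quantile normalization and log2 CPM instead, which these linear values of unequal sums do not carry. The low values of short transcripts clustered on a first and a second step, the second 1.88 to 1.97 times the first. Taking the first step as a single fragment gave a rough estimate of 25.3 to 28.2 M fragments per library. On that estimate the lowest S100 value among the 7 genes over the libraries, 7.49 FPKM of S100a4 in R3-Cntl DZ 1, stood for 98.3 fragments.

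Runx3, the gene targeted in these mice, was not lower in the libraries labelled R3-cKO. Its values in SFZ libraries 1 to 3, in FPKM, were 10.73, 5.98 and 6.65 with the R3-Cntl label and 11.83, 9.07 and 3.42 with the R3-cKO label. The DZ values were 12.67, 12.65 and 7.66 with the first label and 15.95, 12.66 and 8.14 with the second. The genotypes overlapped in both zones, so each direction between genotypes below refers to libraries labelled R3-cKO. A value per gene does not show whether the floxed exons were present. The 4 Y-linked genes Ddx3y, Eif2s3y, Kdm5d and Uty summed to 42.9, 12.1 and 52.4 FPKM in R3-Cntl SFZ and to 40.0, 16.8 and 17.0 FPKM in R3-Cntl DZ. In R3-cKO they summed to 28.3, 0.06 and 0.03 FPKM in the SFZ and to 29.6, 0.01 and 0.03 FPKM in the DZ. Libraries 2 and 3 of R3-cKO thus lacked Y-linked transcripts that every R3-Cntl library had, and the part of sex in a genotype difference was not tested.

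The zone labels were checked against marker genes. Prg4, which encodes the surface lubricant lubricin, measured 22.24, 8.38 and 7.13 FPKM in R3-Cntl SFZ and 1.39, 1.22 and 1.47 FPKM in R3-Cntl DZ, with no overlap. In R3-cKO its values were 6.95, 2.47 and 2.13 FPKM in the SFZ and 5.72, 1.32 and 2.14 FPKM in the DZ, where the zones overlapped. Between genotypes, every SFZ value of Prg4 was lower under the R3-cKO label, with 7.13 and 6.95 FPKM as the nearest, and the DZ values overlapped. Alpl, a hypertrophic marker, was at 22.93, 34.59 and 51.40 FPKM in DZ libraries labelled R3-Cntl and 11.90, 8.43 and 11.43 FPKM in those labelled R3-cKO, also without overlap. Its SFZ values were 36.56, 69.25 and 33.90 FPKM under the first label and 32.02, 23.39 and 15.97 FPKM under the second. In R3-cKO every SFZ value of Alpl was thus above every DZ value, against the direction of the zone label for a hypertrophic marker, and its zones overlapped in R3-Cntl. Of the 6 hypertrophic markers, 4 were higher and 2 lower in DZ over both genotypes, and 0 passed in limma, beside 23.2% of all genes. Of the 5 superficial zone markers, which include Prg4, 4 were tested over both genotypes. All 4 were lower in DZ and 0 passed, with a median of -0.80 against -0.14 over all genes. In R3-Cntl the zones of Erg and Vit overlapped, while those of Cilp and Clu did not. Neither Prg4 nor Alpl passed between genotypes in limma (adjusted p above 0.99 for Prg4 in SFZ and for Alpl in DZ). The study used another test, DESeq2, and listed Prg4 in SFZ cells and Alpl in DZ cells among its most reduced genes. It also reported lower Prg4 mRNA in R3-cKO SFZ cells in a separate assay. The 13 chondrocyte markers in the table, of which Col2a1 was the most abundant, summed to 17421, 5590 and 10524 FPKM in R3-Cntl SFZ, 14882, 8669 and 6480 FPKM in R3-cKO SFZ, 39676, 24878 and 31994 FPKM in R3-Cntl DZ and 26139, 17210 and 31175 FPKM in R3-cKO DZ. Every DZ library but R3-cKO DZ 2 was above every SFZ library in this sum. The 12 fibroblast markers, led by Fn1, summed to 5902, 9674 and 7118 FPKM in R3-Cntl SFZ, 6755, 5597 and 13146 FPKM in R3-cKO SFZ, 2586, 3424 and 6018 FPKM in R3-Cntl DZ and 4295, 3651 and 5599 FPKM in R3-cKO DZ. All 12 were detected above 1 FPKM on average. These are bulk libraries of mixed cells, in which fewer cells of a type and less RNA per cell cannot be told apart.

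S100a11 was the most abundant of the 7 genes in all 12 libraries, with a mean of 676 FPKM (SD 249, n = 12) and rank 91 among all 17536 genes. It encodes an S100 protein that binds annexin A1. S100a6 (calcyclin, 434 ± 318 FPKM, SD, n = 12), S100a4 (249 ± 318), S100a10 (216 ± 67.6), S100b (116 ± 72.2), S100a1 (65.1 ± 18.6) and S100a13 (26.4 ± 7.04) followed by their means over the same libraries. Neighbours in this order overlapped in their ranges over the libraries. The spread differed between the genes: the highest S100a4 value was 141 times the lowest, against 11.4 times for S100b, 8.01 times for S100a6, 3.59 times for S100a11, 3.07 times for S100a1, 2.58 times for S100a10 and 2.55 times for S100a13. Together the 7 genes held between 0.203% (R3-Cntl DZ 3) and 0.846% (R3-cKO SFZ 2) of the FPKM of a library. R3-cKO SFZ 2 had the highest value of S100a4, S100a6, S100a10, S100a11 and S100a13.

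**Figure D1:**
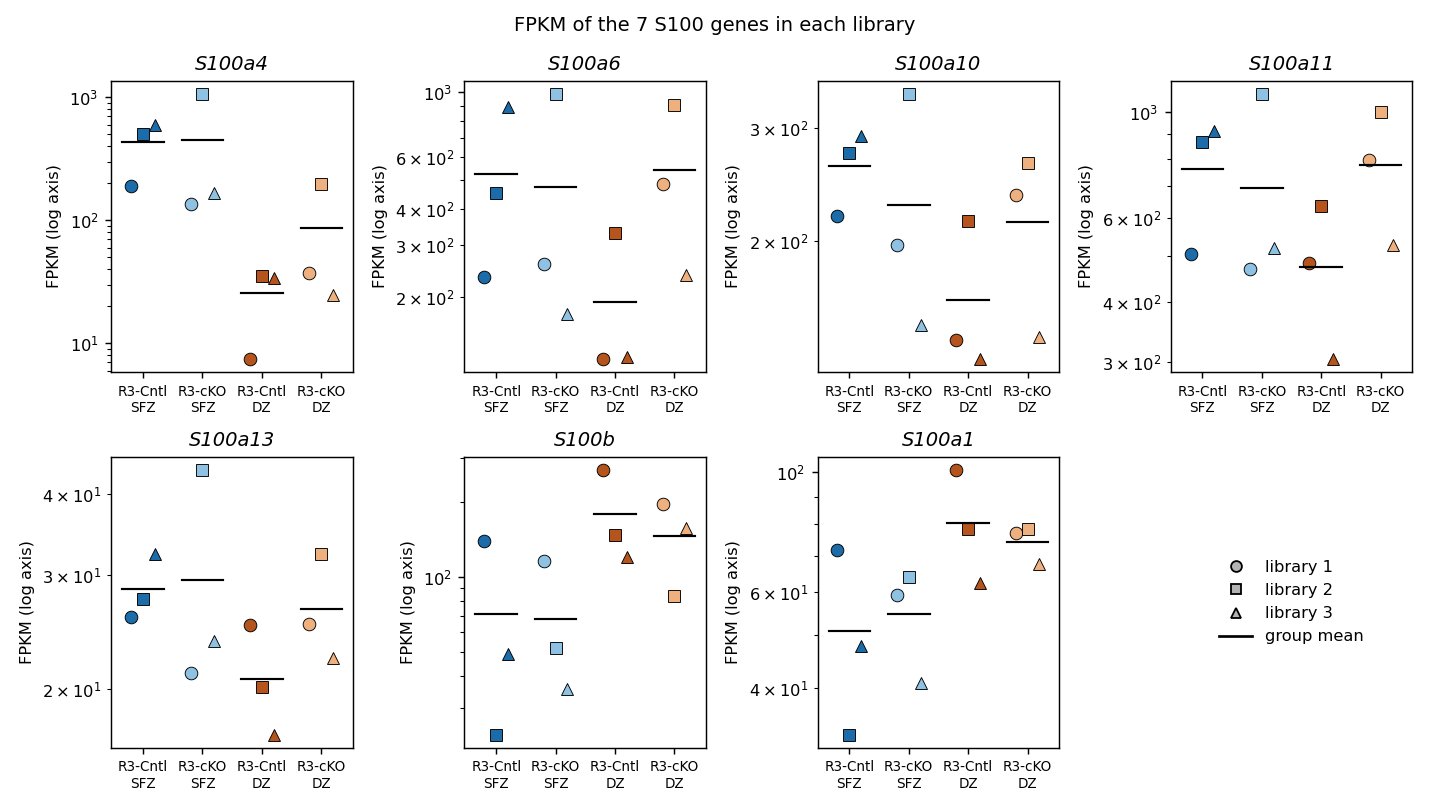
FPKM of each of the 7 S100 genes in the 12 libraries, on log axes that differ between panels. Symbols give the library number and black lines the mean of 3 libraries; S100a4 spans 7.49 to 1056 FPKM, with SFZ libraries of each genotype above the DZ libraries of the same number, and S100b and S100a1 have higher means in DZ.

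S100a4 had the largest zone difference of the 7 genes. The values were 188.42, 505.84 and 596.45 FPKM in R3-Cntl SFZ and 7.49, 35.36 and 34.10 FPKM in R3-Cntl DZ. Every SFZ value was above every DZ value. The group means were 430 ± 214 and 25.7 ± 15.7 FPKM (SD, n = 3), a 16.8-fold lower mean in DZ. In R3-cKO its values were 135.34, 1056 and 165.05 FPKM in the SFZ and 37.16, 198.50 and 24.62 FPKM in the DZ. These zones overlapped, because R3-cKO DZ 2 was above R3-cKO SFZ 1 and 3, but SFZ exceeded DZ in each of the 3 pairs of the same number. S100a4 ranked 144 and 138 among all genes by its mean in R3-Cntl and R3-cKO SFZ, and 2565 and 738 in the DZ.

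The zones were compared by limma on log2(FPKM + 1), a scale that understates the change of low genes, among genes that reached 1 FPKM in 3 or more libraries. Of the 7 genes, 1 passed an adjusted p of 0.05 between zones in R3-Cntl, where 1.24% of 11336 genes did. S100a4 fell by 4.12 in log2 units (limma adjusted p = 0.0489, standard error 0.67), where the median of all genes was -0.17. The call was close to the threshold: over all settings tried the adjusted p ran from 0.0157 to 0.242, and it was lost on leaving out any R3-Cntl library but SFZ 1 (adjusted p 0.0748 to 0.242), while the difference itself stayed between -4.64 and -3.43 over all settings. It was also lost under 6 of the 8 settings that keep every library, with adjusted p from 0.0514 to 0.0869. The number of genes called, 140, ranged from 0 to 505 on leaving out a library and from 0 to 831 over all settings. In R3-Cntl, 3 of the 7 genes had zones that did not overlap, S100a4, S100a10 and S100a13, all lower in DZ, beside 32.4% of all genes.

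Between zones in R3-cKO, 0 of the 7 genes passed in limma, where 0.0176% of 11336 genes did, 2 in all, and 1602 had an unadjusted p under 0.05 (885 without R3-cKO SFZ 3 to 2193 without R3-cKO SFZ 2). The S100a4 difference was -2.31 (standard error 1.05, limma adjusted p = 0.388), and from -3.20 to -1.38 on leaving out a library. In R3-cKO each library was most like that of its own number in the other zone. With the number as a block, 352 genes passed and S100a4 was 1 of them (standard error 0.18, limma adjusted p = 0.0293). S100a4 was lower in DZ in all 3 pairs, as were 41.6% of all genes. S100a1 was the only 1 of the 7 whose R3-cKO zones did not overlap, beside 21.0% of all genes.

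With both genotypes in a single model, 3 of the 7 genes differed between zones in limma, where 23.2% of 11765 genes did. S100a4 fell by 3.22 in DZ (standard error 0.71, limma adjusted p = 0.00986), and S100b and S100a1 rose. An exact two-sided permutation of zone labels within genotype gave p = 0.015 for S100a4, and 0.005 is the smallest p it can give. This permutation, also used for S100b and S100a1 below, did not keep pairs by number. Its p was not adjusted over the 7 genes. The S100a4 call held in all 20 settings, with adjusted p from 0.0021 to 0.0283. None of the 7 genes separated all 6 SFZ from all 6 DZ libraries, as 11.3% of genes did. Of all genes called, 506 were higher and 2219 lower in DZ. Quantile normalization moved the median of all genes from -0.14 to 0.03 and this split to 1237 higher and 915 lower, and the calls of S100a4, S100b and S100a1 and their directions were kept.

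S100b was higher in DZ. The values were 139.80, 23.43 and 49.05 FPKM in R3-Cntl SFZ and 267.82, 146.63 and 120.58 FPKM in R3-Cntl DZ. In R3-cKO its values were 115.63, 52.13 and 35.75 FPKM in the SFZ and 196.26, 83.52 and 157.15 FPKM in the DZ. SFZ library 1 of each genotype lay within the DZ range, and the other 4 SFZ libraries lay below every DZ library. The mean was 70.8 ± 61.1 FPKM in R3-Cntl SFZ and 178 ± 78.6 FPKM in R3-Cntl DZ (SD, n = 3). Over both genotypes S100b rose by 1.39 (standard error 0.43, adjusted p = 0.0399 in limma and 0.00909 to 0.0913 over all settings), and exact permutation gave p = 0.025. Within R3-Cntl the difference was 1.60 (limma adjusted p = 0.165) and within R3-cKO 1.18 (limma adjusted p = 0.364). The call over both genotypes was lost without any of 8 of the 12 libraries, with adjusted p from 0.0605 to 0.0913, and it was kept without R3-Cntl SFZ 1, R3-cKO SFZ 1, R3-Cntl DZ 3 or R3-cKO DZ 2. Without the filter on low values it was lost as well (adjusted p = 0.0571 in limma).

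S100a1, the other S100 gene known from chondrocytes, had a smaller zone difference. The values were 71.90, 32.86 and 47.77 FPKM in R3-Cntl SFZ and 100.74, 78.61 and 62.47 FPKM in R3-Cntl DZ, where SFZ 1 overlapped DZ. The values were 59.31, 64.08 and 40.85 FPKM in R3-cKO SFZ and 77.20, 78.41 and 67.59 FPKM in R3-cKO DZ, with no overlap. Over both genotypes it rose by 0.58 (standard error 0.19, adjusted p = 0.0477 in limma and 0.0135 to 0.106 over all settings), and exact permutation gave p = 0.02. This call was kept without R3-Cntl SFZ 1, R3-cKO SFZ 2 or R3-Cntl DZ 3, and lost without any of the other 9 libraries (adjusted p 0.0563 to 0.106). It was also lost without the filter on low values (adjusted p = 0.0642 in limma) and when the mean had to reach 10 FPKM (adjusted p = 0.0540). In R3-cKO both S100b and S100a1 were higher in DZ in all 3 pairs of the same number, as were 15.4% of all genes.

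The genes around S100b and S100a1 were measured alongside. All 3 genes of the Sox trio rose in DZ over both genotypes in limma: Sox9 by 0.80 (adjusted p = 0.00767), Sox6 by 0.72 (adjusted p = 0.00273) and Sox5 by 0.54 (adjusted p = 0.0164). Of 13 chondrocyte markers, all were higher in DZ and 11 passed, beside 23.2% of all genes, with a median of 1.28 against -0.14 over all genes. The part of these markers in the S100b and S100a1 differences was not tested. Beside S100a4, 9 of the 12 fibroblast markers were lower in DZ over both genotypes and 3 were higher, with a median of -2.57. All 9 lower ones passed in limma, as did 1 of the higher ones, beside 23.2% of all genes. Col1a1, for example, measured 1859, 3706 and 2112 FPKM in R3-Cntl SFZ and 24.4, 242 and 961 FPKM in R3-Cntl DZ. Fn1 was the higher fibroblast marker that passed, and Dcn and Lum were higher without passing. Dcn, which encodes decorin, measured 191, 121 and 106 FPKM in R3-Cntl SFZ and 331, 258 and 549 FPKM in R3-Cntl DZ. All 3 tendon markers (Tnmd, Scx and Mkx) also fell and passed over both genotypes, beside the same share of all genes. Skeletal muscle markers summed to 89.0 FPKM in R3-Cntl SFZ 2, against at most 19.6 FPKM (R3-cKO DZ 2) elsewhere. Adipocyte markers were also highest there, at 47.4 FPKM, followed by R3-cKO SFZ 3 at 39.95 FPKM. R3-Cntl SFZ 2 had the lowest S100b and S100a1 of the 12 libraries. The methods state that ligaments and tendons were removed before digestion. The part of fibroblast, tendon, muscle, adipocyte or macrophage cells in the S100a4, S100b and S100a1 differences was not tested.

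The remaining 4 genes, S100a6, S100a10, S100a11 and S100a13, had no zone difference that passed. S100a6 measured 233.85, 452.89 and 891.19 FPKM in R3-Cntl SFZ and 122.87, 330.15 and 125.06 FPKM in R3-Cntl DZ. In R3-cKO its values were 259.88, 983.71 and 175.24 FPKM in the SFZ and 484.39, 905.29 and 238.09 FPKM in the DZ. The zones overlapped in both genotypes, and libraries 2 were the highest of their group except in R3-Cntl SFZ, where library 3 was. The zone difference of S100a6 was -1.40 in R3-Cntl (standard error 0.57, limma adjusted p = 0.175) and 0.41 in R3-cKO (standard error 0.76, adjusted p = 0.879).

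S100a10, the partner of Anxa2, had zones that just separated in R3-Cntl. The values were 218.79, 274.48 and 291.06 FPKM in the SFZ and 140.23, 214.73 and 131.08 FPKM in the DZ, with a difference of -0.71 (standard error 0.22, limma adjusted p = 0.115). In R3-cKO the SFZ and DZ values, 148 to 339 and 142 to 264 FPKM, overlapped almost entirely. S100a13, which takes part in the export of fibroblast growth factor 1, measured 25.85, 27.54 and 32.33 FPKM in R3-Cntl SFZ and 25.11, 20.17 and 17.04 FPKM in R3-Cntl DZ, again without overlap. Its difference was -0.45 (standard error 0.17, limma adjusted p = 0.146). In R3-cKO the fitted zone differences of these genes were near 0, at -0.06 for S100a10, whose sign turned under median-of-ratios size factors, and -0.09 for S100a13, whose sign turned under these factors and under quantile normalization. S100a11 measured 505.21, 866.84 and 913.99 FPKM in R3-Cntl SFZ and 483.80, 636.58 and 304.11 FPKM in R3-Cntl DZ (difference -0.70, standard error 0.34, limma adjusted p = 0.230).

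**Figure D2:**
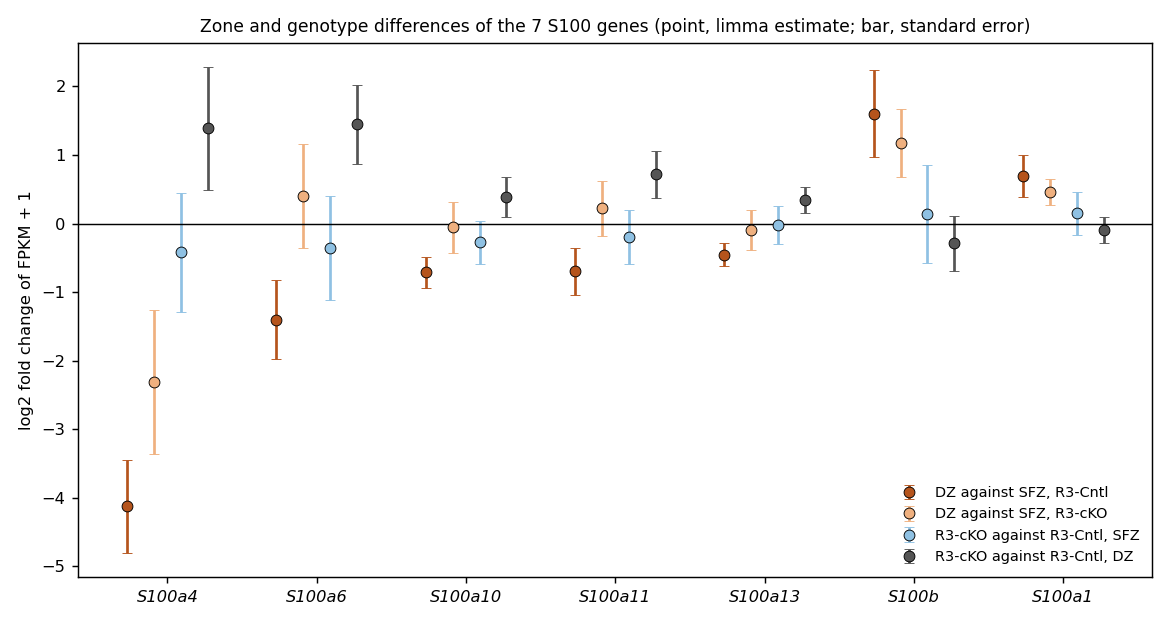
Differences of the 7 S100 genes between zones and between genotypes on the log2(FPKM + 1) scale; points are limma estimates and bars are standard errors, with 3 libraries per group. The zone differences of S100a4 and, upwards, of S100b are the largest, and S100a6 and S100a11 have zone differences of opposite sign in R3-Cntl and R3-cKO, the R3-cKO ones within 1 standard error of 0.

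Between genotypes in SFZ cells, 0 of the 7 genes and 0 of 11537 genes (0%) passed in limma, and 34 genes had an unadjusted p under 0.05. On leaving out a library this unadjusted count ran from 12 (without R3-cKO SFZ 3) to 1204 (without R3-cKO SFZ 2), and 0 genes passed in each fit. The fitted differences ran from -0.42 (S100a4, standard error 0.87) to 0.15 (S100a1, standard error 0.31), each smaller than its standard error. None of the 7 genes had groups that did not overlap, against 2.40% of all genes. R3-cKO SFZ 2 was far above the other R3-cKO SFZ libraries in S100a4, S100a6 and S100a11, and R3-cKO SFZ 1 and 3 were below the R3-Cntl mean in each of these genes. S100a11, for example, measured 468.22, 1091 and 519.57 FPKM there.

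Between genotypes in DZ cells, 0 of the 7 genes and 0 of 11091 genes (0%) passed in limma, and 404 genes had an unadjusted p under 0.05, a count of 211 (without R3-cKO DZ 2) to 773 (without R3-cKO DZ 3) on leaving out a library. The largest fitted log2 difference among the 7 was that of S100a6, with means of 193 ± 119 FPKM under the R3-Cntl label and 543 ± 337 FPKM under the R3-cKO label (SD, n = 3). In log2 units it was 1.45 (limma adjusted p = 0.999, standard error 0.58), against 1.39 for S100a4, whose ratio of means was the larger (3.38 times against 2.82 times). Its libraries labelled R3-cKO exceeded their R3-Cntl counterparts of equal number by 3.94, 2.74 and 1.90 times. S100a11 measured 796.02, 1003 and 527.90 FPKM in R3-cKO DZ and was higher in each pair by 1.65, 1.57 and 1.74 times (difference 0.72, standard error 0.34). For both genes the groups overlapped, since R3-Cntl DZ 2 was above R3-cKO DZ 3. None of the 7 had groups that did not overlap, against 8.03% of all genes. S100a6, S100a10, S100a11 and S100a13 were higher in all 3 pairs, 4 of the 7 genes, as were 26.6% of all genes. The first S100a13 pair, 25.11 and 25.19 FPKM, was close to a tie.

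In the DZ, each library was most like the library of its own number in the other genotype. A fit blocked by number put 1830 genes below an unadjusted p of 0.05 but 0 below an adjusted one. The standard errors shrank to 0.20 for S100a6 (limma adjusted p = 0.144) and 0.10 for S100a11 (limma adjusted p = 0.138). S100a4 was higher in R3-cKO DZ in libraries 1 and 2, by 4.96 and 5.61 times, and was 0.722 times its R3-Cntl value in library 3. The fitted difference of 1.39 (standard error 0.89) ran from 0.50 (without R3-cKO DZ 2) to 1.98 (without R3-cKO DZ 3). S100b and S100a1 differed by -0.29 and -0.09, less than a standard error without the block, and the sign of both depended on single libraries. Of 13 chondrocyte markers, 12 were lower in R3-cKO DZ, with 0 passing and a median of -0.59 against 0.047 over all genes. Of 6 hypertrophic markers, 5 were lower and 1 higher, with 0 passing and a median of -0.98. Exact permutation of the 6 DZ labels, two-sided, gave p = 0.2 for S100a6, S100a10, S100a11 and S100a13, and cannot give a p below 0.1. It exchanged labels freely among the 6 libraries and did not keep the pairs by number.

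**Figure D3:**
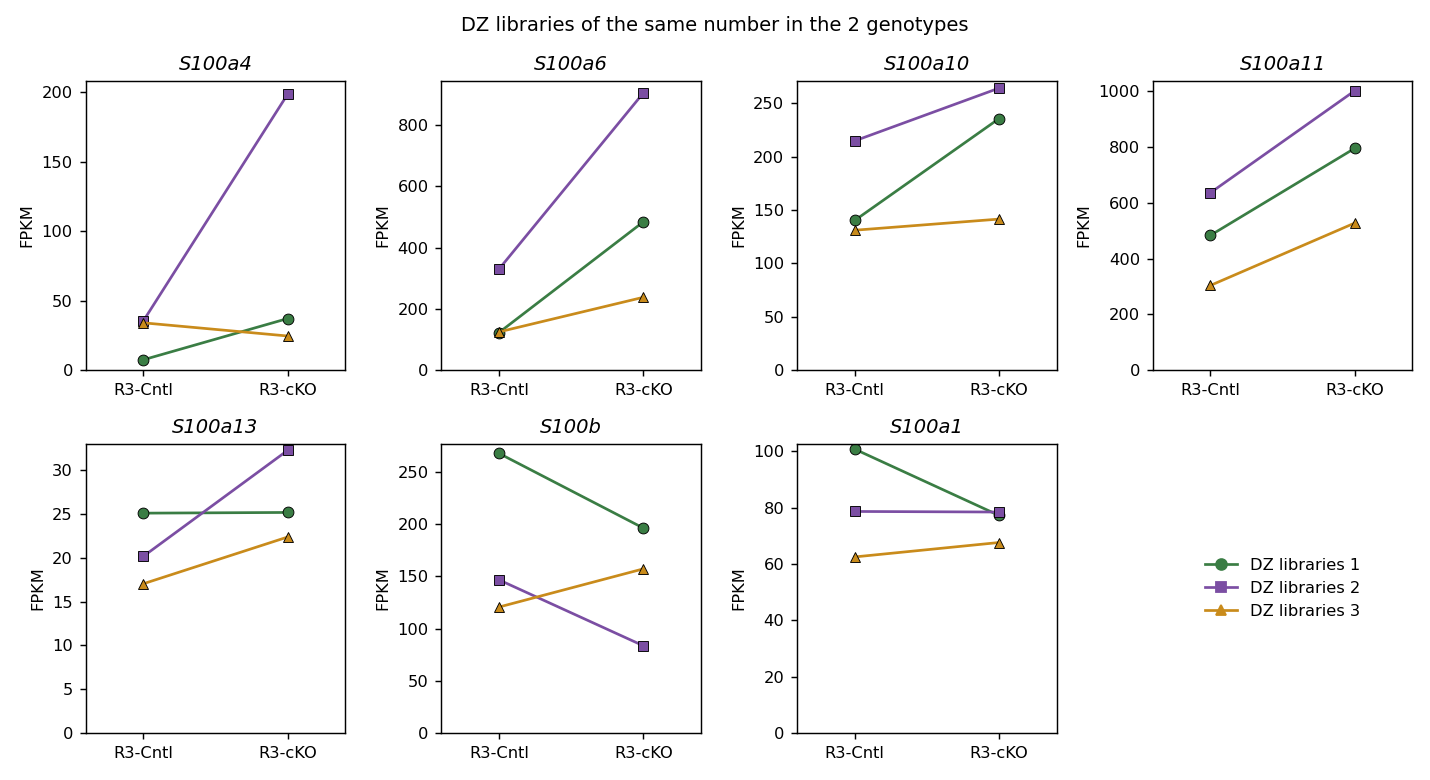
FPKM of the 7 S100 genes in DZ libraries of R3-Cntl and R3-cKO mice, each line joining libraries of the same number (1, 2 or 3). The lines of S100a6, S100a10 and S100a11 all go up, those of S100a11 by 1.57 to 1.74 times, those of S100a13 go up in pairs 2 and 3 and are flat in pair 1 (25.11 and 25.19 FPKM), while those of S100a4, S100b and S100a1 go both ways.

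The difference between the genotypes' zone effects was tested as an interaction over the 12 libraries, and 0 of the 7 genes and 0 of 11765 genes (0%) passed in limma, with 99 genes at an unadjusted p under 0.05. On leaving out a library that count ran from 36 (without R3-Cntl SFZ 2) to 714 (without R3-cKO SFZ 2). The fitted interaction was 1.81 for S100a4 (standard error 1.38, and 0.92 without R3-cKO DZ 2 to 2.75 without R3-cKO SFZ 2) and 1.81 for S100a6 (standard error 1.05), and 0.92 for S100a11 (standard error 0.57), each with an adjusted p of 0.999. Between libraries of the same number, S100a4 was higher in SFZ by 25.2, 14.3 and 17.5 times in R3-Cntl and by 3.64, 5.32 and 6.70 times in R3-cKO. The share of all genes whose ratios differ in this way was not counted. A fit blocked by number put 949 genes below an unadjusted p of 0.05 but 0 below an adjusted one. In that fit the S100a4 interaction had a standard error of 0.27 and a limma adjusted p of 0.360. No gene had a lower adjusted p, but genes can share an adjusted p, so this does not rank S100a4 first. The numbers did not pair the libraries in R3-Cntl or in the SFZ, so these ratios and this block rest on numbers that hold for part of the libraries.

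Most S100 genes outside the 7 were low. Of 11 further names in the table, 10 family genes and S100pbp, which encodes an S100P-binding protein, 5 stayed below 1 FPKM in every library (S100a2, S100a5, S100a14, S100g and S100z). S100a16 was the most abundant, with 22.70, 33.17 and 36.92 FPKM in R3-Cntl SFZ and 15.90, 18.69 and 19.54 FPKM in R3-Cntl DZ. In R3-cKO its zones overlapped, with 22.40, 27.59 and 28.77 FPKM in the SFZ and 19.86, 25.09 and 21.25 FPKM in the DZ. S100a16 fell in DZ over both genotypes by 0.48 (standard error 0.14, limma adjusted p = 0.0305). It lies between S100a13 and S100a4 in the run of 11 genes, on the same strand. S100a3 and S100a5 lie directly before and after S100a4, the closer one 1067 bases away. S100a3 did not exceed 2.21 FPKM and S100a5 did not exceed 0.09 FPKM in any library.

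S100a8 and S100a9 encode the calprotectin subunits that neutrophils and monocytes hold in quantity. S100a8 measured 3.33, 1.11 and 0.40 FPKM in R3-Cntl SFZ, and no other library exceeded 0.30 FPKM. S100a9 measured 5.46 and 2.21 FPKM in R3-Cntl SFZ 1 and 2, 0.97 FPKM in R3-cKO SFZ 1 and at most 0.43 FPKM elsewhere. On the fragment estimate the highest of these values stood for 36.8 fragments of S100a8 and 79.8 fragments of S100a9, in R3-Cntl SFZ 1. The sum of the 11 macrophage markers in the table, led by Lyz2, was highest in the same library. It was 174, 141 and 7.78 FPKM in R3-Cntl SFZ, 136, 15.1 and 62.8 FPKM in R3-cKO SFZ and 4.01 to 22.9 FPKM in the DZ. Adgre1, Cd14 and Fcgr1 were instead highest in R3-cKO SFZ 1, and Mrc1 in R3-Cntl SFZ 2. Of these 11, Ptprc, Cd163 and Fcgr1 stayed below 1 FPKM in every library. Of 6 neutrophil markers, Mpo, Elane and Ltf stayed below 1 FPKM in every library, while Ngp (2.98 FPKM) and Camp (1.25 FPKM) were highest in R3-Cntl SFZ 1 and Cxcr2 (2.13 FPKM) in R3-cKO SFZ 2. S100a4, which macrophages also express, was lowest of its group in R3-Cntl SFZ 1 and highest in R3-cKO SFZ 2. Over both genotypes 7 of 8 macrophage markers tested fell in DZ in limma, as S100a4 did, with a median of -1.26 beside 23.2% of all genes called. The part of macrophages or neutrophils in the S100a4, S100a8 and S100a9 values was not tested.

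**Figure D4:**
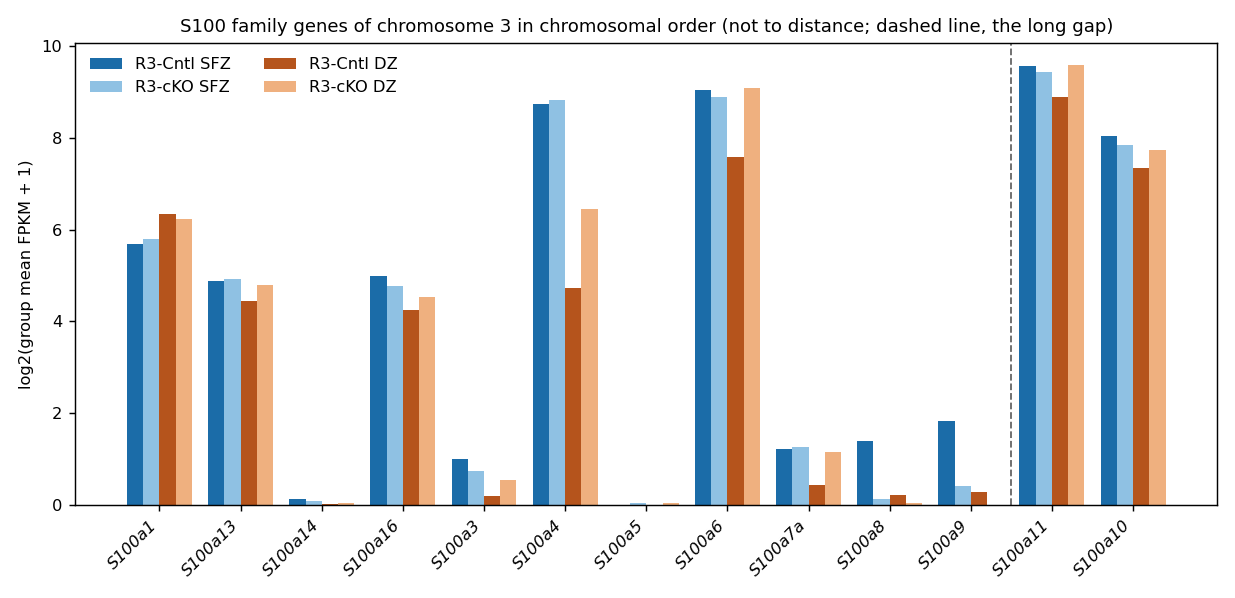
Group means of the 13 S100 family genes of chromosome 3, in chromosomal order and on a log2(FPKM + 1) axis, with the 4 groups as bars and the dashed line at the gap of 2825 kb. S100a1, S100a13, S100a16, S100a4, S100a6, S100a11 and S100a10 have group means above 18 FPKM, while S100a14 and S100a5 are near 0 and S100a3, S100a7a, S100a8 and S100a9 have group means of at most 2.56 FPKM.

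Annexins are the best known partners of S100 proteins. All 9 annexin genes tested were expressed, and Anxa2 was the most abundant at a mean of 516 FPKM. Between zones over both genotypes 1 of the 9, Anxa11, passed, beside 23.2% of all genes, and rose by 0.63 (limma adjusted p = 0.0373), and the median was -0.16 against -0.14 over all genes. The ratio of S100a10 to Anxa2, both in FPKM, was 0.487, 0.472 and 0.417 in R3-Cntl SFZ, 0.442, 0.430 and 0.450 in R3-cKO SFZ, 0.387, 0.417 and 0.401 in R3-Cntl DZ and 0.433, 0.361 and 0.332 in R3-cKO DZ. It thus varied less than either gene. In DZ cells 5 of the 9 (Anxa1, Anxa2, Anxa3, Anxa7 and Anxa8) were higher under the R3-cKO label in all 3 pairs, beside 26.6% of all genes, and Anxa11 was lower in 2 of 3. Anxa1, for example, stood at 37.10, 111.53 and 64.05 FPKM under the R3-Cntl label and at 150.99, 243.57 and 96.16 FPKM under the R3-cKO label, and 0 of the 9 annexins passed between genotypes in either zone.

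Of 18 further receptors and partners, 16 were in the table and 11 were tested between zones over both genotypes, where 23.2% of all genes passed. Of the 11, 3 passed: Ahnak, a large scaffold that S100a10 and Anxa2 bind, and the plasminogen activators Plat and Plau all fell in DZ, by 0.96, 1.34 and 1.65 (limma adjusted p = 0.0137, 0.0168 and 0.0156). The list had a median of -0.43 against -0.14 over all genes. Ager, the receptor RAGE that binds extracellular S100 proteins, did not exceed 0.62 FPKM in any library, while Bsg (basigin), a receptor of S100a9, had a mean of 531 FPKM. Of 5 calmodulin genes, which encode other EF-hand proteins, Calm3 alone passed and fell by 0.47 (limma adjusted p = 0.0105). Of the Runx genes and their partner Cbfb, Runx2 fell in DZ by 0.44 (limma adjusted p = 0.0107), and the other 3 did not pass. The study saw Runx2 protein mainly in the DZ of joint cartilage before surgery, which is another measure in older mice.

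Over the 12 libraries the 7 genes formed 2 sets of like pattern, given here as Pearson correlations of log2(FPKM + 1). The libraries differ in zone, genotype and number, and the part of each in these correlations was not tested. S100a4, S100a6, S100a10, S100a11 and S100a13 had correlations with each other from 0.63 to 0.93. S100b and S100a1 had one of 0.90 with each other and negative ones with the first 5, from -0.82 (S100a4 with S100b) to -0.091 (S100a13 with S100a1). S100a1 and S100a13, with start sites 105 bases apart in GRCm38.p6, had a ratio of their values that ran from 1.19 in R3-Cntl SFZ 2 to 4.01 in R3-Cntl DZ 1. With group means removed, S100a6 and S100a10 had a correlation of 0.95 and S100a1 and S100b one of 0.81. On that scale S100a1 had positive correlations with S100a6 (0.11), S100a10 (0.23), S100a11 (0.082) and S100a13 (0.37) and a negative one with S100a4 (-0.15). S100b stayed negative with all 5, at -0.62 for S100a4, -0.40 for S100a11, -0.35 for S100a6, -0.20 for S100a10 and -0.18 for S100a13.

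The 3 genes most like each member were sought among the 5918 genes whose mean reached 10 FPKM. For S100b they were Col9a3 (r = 0.98, n = 12), Colgalt2 (0.98) and Col9a2 (0.97), where Col9a2 and Col9a3 encode chains of the cartilage collagen type IX. For S100a1 they were Ncmap (0.96), Trpv4 (0.95), which encodes a calcium channel, and Proser2 (0.95). For S100a6 they were Cdc37 (0.99), Anxa2 (0.98) and Ints1 (0.98), and for S100a4 Klc1 (0.98), Rbms1 (0.98) and Opa3 (0.97). For S100a10 they were Tpm3 (0.99), Glud1 (0.98) and Mcm7 (0.97), for S100a11 Myl12a (0.98), G6pdx (0.97) and Arhgdia (0.96), and for S100a13 Ssna1 (0.93), Id1 (0.93) and Itpa (0.92). Tpm3 and Myl12a encode parts of the actin and myosin system.

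**Figure D5:**
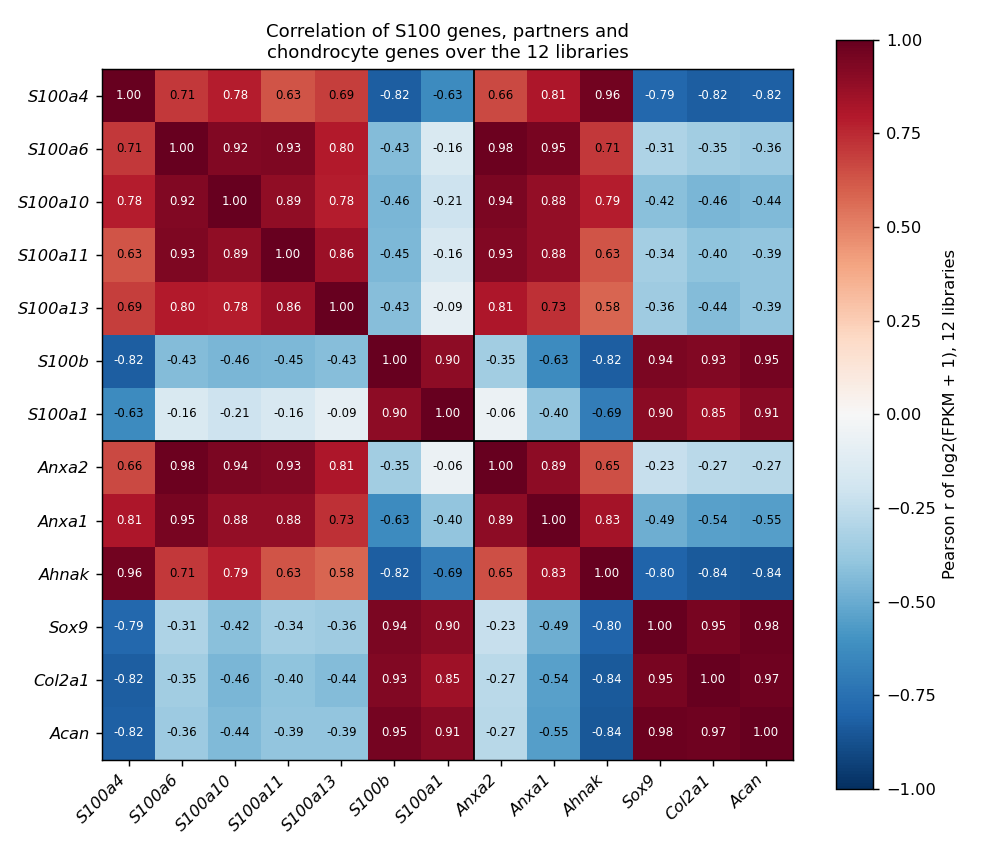
Pearson correlations of log2(FPKM + 1) over the 12 libraries among the 7 S100 genes (above and left of the black lines), the partners Anxa2, Anxa1 and Ahnak and the chondrocyte genes Sox9, Col2a1 and Acan. S100b and S100a1 go with the chondrocyte genes (0.85 to 0.95), S100a6, S100a10 and S100a11 go with Anxa2 (0.93 to 0.98) and S100a4 goes with Ahnak (0.96).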

How the data were processed

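The authors sequenced paired-end RNA-seq libraries, and the submitters' processing notes name Bowtie 0.12.2 and mm9. The deposited values behave as FPKM scaled by TMM, a unit inferred from the values. All 12 columns were matched and 0 were left unmapped. Tests on log2(FPKM + 1) used limma 3.58.1 under R 4.3.3 (empirical Bayes, mean-variance trend), for genes that reached 1 FPKM in 3 or more libraries of the comparison, with Benjamini-Hochberg adjustment. Descriptions used Python 3.11.15, pandas 2.3.3 and NumPy 2.4.6. Fragments were estimated from genes with a single transcript under 1500 bases. Genes named belong to the 7, to lists of family, partners and markers, or to the 3 nearest patterns. Members and lists were chosen with earlier results of these data known.

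Numbers, taken from sample titles, were treated as pairs where every library correlated best with its own number, over 11359 genes with group means removed, a judgement made after seeing the correlations. Same-number values were 0.65, 0.78 and 0.69 between genotypes in the DZ and 0.42, 0.78 and 0.65 between zones in R3-cKO. They were 0.79, -0.094 and -0.42 between genotypes in the SFZ and 0.58, 0.11 and -0.15 between zones in R3-Cntl, not treated as paired. The study describes SFZ and DZ cells from 3 individual mice of each genotype, which reads as both zones from the same mice, without saying which number is which mouse.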

Additional observations from a re-analysis of the deposited data

How the results depend on the processing

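Values under other settings are limma fits of the same libraries, and the cause of a change was not tested. For the single genes, 599 of 658 values kept their direction and their side of the threshold, 31 lost a call, 2 gained one and 26 changed sign. Between zones in R3-Cntl, 88 genes were called with a pseudocount of 0.1, 29 with 5, 0 without the filter on low values, 8 when the mean had to reach 10 FPKM, 1 after quantile normalization and 17 with median-of-ratios size factors, and 0 of the 7 S100 genes in each of these. A single model of 12 libraries called 798 genes. Leaving out a library gave 0 to 505 genes and 0 to 2 of the 7.

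Between zones in R3-cKO, 1 gene was called with either pseudocount, 7 without the filter, 0 when the mean had to reach 10 FPKM and 165 in a single model, and 0 to 5 on leaving out a library. The S100a13 difference became 0.015 after quantile normalization and 0.041 with median-of-ratios size factors, and that of S100a10 became 0.078 with these factors. Over both genotypes, 1162 genes were called when the mean had to reach 10 FPKM, 1 of the 7 without the filter, and 1624 to 2899 genes and 1 to 3 of the 7 on leaving out a library. Median-of-ratios size factors gave 1053 genes higher and 1088 lower.

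With the replicate number as a block, 831 genes were called between zones in R3-Cntl and 352 in R3-cKO, where 1 of the 7 (S100a4) passed. The block gave 3965 genes over both genotypes with the same 3 S100 genes, and 0 genes between genotypes and in the interaction. It changed no other call of the 7. In R3-Cntl SFZ, library 3 correlated best with libraries 2 of R3-cKO SFZ (0.69) and R3-Cntl DZ (0.58), and library 2 with libraries 3 of these groups (0.45 and 0.38). Whether numbers 2 and 3 were exchanged there is not known, nothing was exchanged, and the blocked counts of 831 and 3965 use the numbers as given.

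On leaving out a library, some differences kept their sign but moved by more than 1.5 times. Between zones in R3-Cntl these were S100a1 (0.43 to 0.98), S100a6 (-1.88 to -0.92), S100a11 (-0.97 to -0.41) and S100b (1.01 to 2.27), and between genotypes in DZ S100a4 (0.50 to 1.98), S100a10 (0.21 to 0.66), S100a11 (0.43 to 0.97) and S100a13 (0.20 to 0.48). Between zones in R3-cKO they were S100a1 (0.26 to 0.58) and S100a4 (-3.20 to -1.38), and between genotypes in SFZ S100a10 (-0.60 to -0.0064). Between zones over both genotypes they were S100a6 (-0.82 to -0.18), S100a11 (-0.39 to -0.058) and S100a13 (-0.38 to -0.15). In the interaction they were S100a4 (0.92 to 2.75), S100a10 (0.39 to 0.98) and S100a13 (0.17 to 0.67). Differences that changed sign ranged as follows. Between zones in R3-cKO they ran from -0.32 to 0.27 for S100a10, from -0.28 to 0.22 for S100a13, from -0.0063 to 0.60 for S100a11 and from -0.10 to 1.14 for S100a6. Between genotypes in SFZ they ran from -0.12 to 0.43 for S100a1, from -0.46 to 0.80 for S100b, from -1.09 to 0.15 for S100a6, from -0.33 to 0.17 for S100a13, from -1.36 to 0.12 for S100a4 and from -0.58 to 0.031 for S100a11. In DZ they ran from -0.26 to 0.082 for S100a1 and from -0.55 to 0.064 for S100b, and in the interaction from -0.52 to 0.032 for S100a1 and from -1.10 to 0.17 for S100b.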
